A study of Mus musculus with 2 samples.

Results

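The genes that encode histone proteins were examined in mouse R1 embryonic stem (ES) cells at 72 h of culture without LIF. They were chosen by symbol: 68 replication-dependent genes, whose symbols start with Hist1h to Hist4h, and 11 variant histone genes, 79 of the 21935 gene symbols in the files. Where a symbol had several transcript entries, the one highest in mean RPKM was taken, RPKM being reads normalized to the length of the transcript and to the aligned reads of the library.

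The study asked what KDM5B, an enzyme that removes methyl groups from lysine 4 of histone H3, contributes to ES cell function. It mapped KDM5B and methylation of that lysine by ChIP-Seq, and related the methylation to gene expression in self-renewing and differentiating cells. Both groups were R1 ES cells carrying a lentiviral short hairpin RNA, directed against Kdm5b in the shKdm5b cells and against luciferase in the shLuc control cells. The line is kept on irradiated mouse embryonic fibroblasts with LIF, and the labels give low attachment dishes without LIF for differentiation, while the study's methods also name gelatin-coated dishes and do not say which held these cells. Polyadenylated RNA was sequenced from 1 library per group. No difference therefore has a replicate check, what belongs to a library and what to its condition cannot be told apart, and no p-value is given.

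Histone proteins package DNA into nucleosomes, which hold H2A, H2B, H3 and H4 in their core and can bind a linker histone H1. Replication-dependent histone genes are transcribed in S phase, when new DNA must be packaged. Their mRNAs have no introns and end in a short stem-loop, bound by the stem-loop binding protein SLBP, in place of a poly(A) tail. Variant histone genes lie alone in the genome, are mostly transcribed throughout the cell cycle, and give polyadenylated mRNAs. The selection of poly(A) RNA thus keeps the variant mRNAs as a rule and the replication-dependent mRNAs only in the share that carries a tail or is carried over. For the replication-dependent genes, a difference in that share and a difference in total mRNA cannot be told apart, and the 2 classes are described apart.

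The stem-loops are shown because they mark which members belong to the class that poly(A) selection removes. The pattern GGNNNTTNNNANNNCC, with the bases of the stem paired, was searched on the sense strand in 141767 transcripts of the GENCODE M21 annotation of GRCm38, and 0.223% of them held it. It followed the stop codon in 45 of the 67 replication-dependent genes with an annotated transcript, and in 43 of the 48 whose annotation runs at least 60 bases past the stop codon. For H2B the latter count was 9 of 14, and for every other replication-dependent type all such genes had the pattern. The H2B genes without it were Hist1h2bc, Hist1h2bp, Hist1h2bq, Hist1h2br and Hist2h2be. Among the 11 variant genes, H2afx alone had the pattern. The members used 9 different stem-loops. The most common, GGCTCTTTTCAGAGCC, stood in 25 genes of the H1, H2A, H2B and H3 types, and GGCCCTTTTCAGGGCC in 7 H4 genes. Examples follow with the stem-loop in capitals, read from 5′ to 3′ along the mRNA and written as DNA.

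Hist1h1c: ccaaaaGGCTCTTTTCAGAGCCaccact
Hist1h2ad: aacaaaGGCTCTTTTCAGAGCCatccac
Hist1h2ao: aaaaaaGGCTCTTTTCAGAGCCatccac
Hist1h2bk: accaaaGGCTCTTTTAAGAGCCactaaa
Hist3h2ba: cccaaaGGCTCTTTTCAGAGCCaccttc
Hist1h3b: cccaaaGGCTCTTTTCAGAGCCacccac
Hist1h4i: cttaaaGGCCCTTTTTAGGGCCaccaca
Hist1h4c: acaaaaGGCCCTTTTCAGGGCCacccac
H2afx: cacaaaGGCCCTTTTAAGGGCCaccacc

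The shLuc library held 78172698 aligned reads and the shKdm5b library 72702698, all of 50 bases, and 67.9% and 66.3% of them lay on genes. On a transcript of 400 bases, about the length of a core histone coding region, 3 reads amount to 0.0959 RPKM for shLuc and 0.103 RPKM for shKdm5b. Kdm5b itself, the target of the hairpin, was at 104 RPKM in shLuc cells and at 3.01 in shKdm5b cells. All 10 ES cell markers examined were present, from 55.6 to 619 RPKM in shLuc cells, and 1 of them, Pou5f1, was lower by more than 1.5-fold in shKdm5b cells. The 10 markers of fibroblasts, the feeder cells, summed to 50.3 RPKM in shLuc and 50.2 in shKdm5b cells, of which Fn1 made up 44.7 and 44.5, and Postn and S100a4 had no read in the shKdm5b library. Over the 18155 genes with reads, the median log2 ratio of shKdm5b to shLuc, taken here and below on log2(RPKM + 0.1), was -0.19. Scaling the libraries to a median ratio of 0 over genes above 1 RPKM in both took out a shift of -0.17.

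The replication-dependent genes were at low levels in these poly(A) libraries, except those for H2A. Every one of the 68 had reads in both libraries, and their RPKM ran from 0.126 (Hist1h1t) to 131 (Hist1h2ao) in shLuc cells, with a median of 1.63. In shKdm5b cells the values ran from 0.0791 (Hist2h4, 2 reads) to 65.4 (Hist1h2ap), with a median of 1.06. The variant genes were far above this, with medians of 43.1 RPKM in shLuc and 76.4 RPKM in shKdm5b cells. Summed over its members, the replication-dependent class made up 624 RPKM in shLuc and 360 in shKdm5b cells, and the variants 1008 and 1377.

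**Figure D1:**
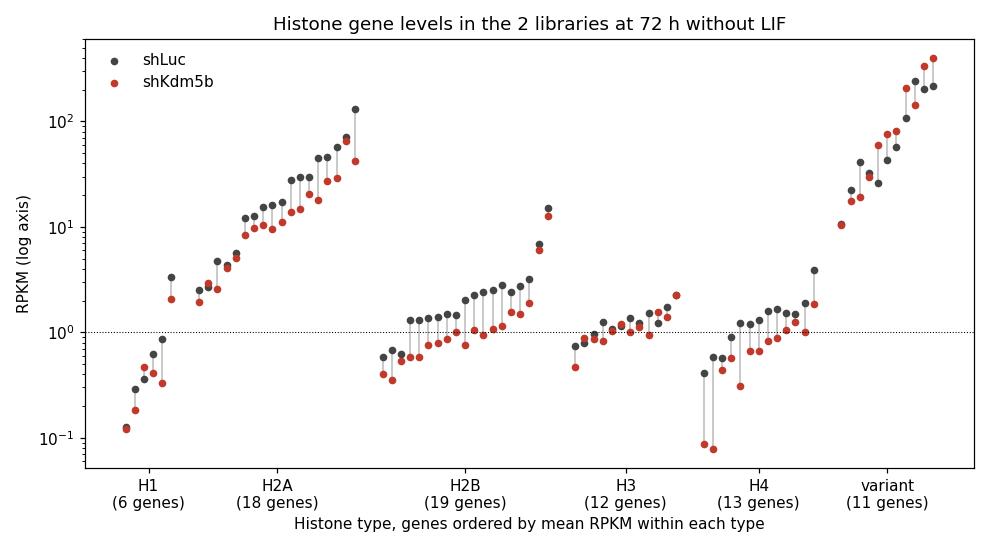
RPKM (log axis) of each histone gene in the shLuc (grey) and shKdm5b (red) libraries, grouped by histone type and ordered by mean RPKM within a type. A grey line joins the values of a gene and the dotted line marks 1 RPKM. Most H2A genes, from 2.51 to 131 RPKM in shLuc cells, and the variants stand above most genes of the other types, and for all H2B and H4 genes the red point is the lower.

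Most replication-dependent genes had lower values in shKdm5b cells. Of the 68, 62 (91.2%) had a lower value, against 62.3% of all genes with reads, and the median log2 ratio over all 68 was -0.61. A gene was called lower or higher when it differed by more than 1.5-fold and exceeded 1 RPKM in at least 1 library. 53 members passed that RPKM threshold, of which 31 (58.5%) were lower, 0 were higher and 22 lay within 1.5-fold. In the same comparison 32% of the 11804 genes above the threshold were called lower, 16.3% higher and 48.3% either way. A member near the RPKM threshold passes it through the library in which it is higher, and that was shLuc for 49 of the 53, so their count is a description. The same holds for the counts by type below. Pooled over the class, 23892 reads in shLuc and 13121 in shKdm5b cells gave, at the depth of each library, a log2 ratio of -0.76, with an exact 95% counting interval of -0.79 to -0.73. Such intervals are taken on the reads without a pseudocount and cover counting error only, since reads without molecular identifiers are not independent molecules. A pooled interval would be too narrow if reads were counted for several members, and the sources used here do not say whether they were. Of the 31 lower genes, 30 had a counting interval below 0, and 15 had one wholly past the 1.5-fold threshold. After scaling, 24 members were lower and 0 higher, against 25.3% and 22.1% of all genes. Stricter rules gave fewer: 16 lower members with a pseudocount of 1 RPKM (26.5% of all genes), 11 with a fold above 2 (16.5%), 15 with the edgeR test at a dispersion of 0 added (30.8%) and 0 at a dispersion of 0.04, at which 2.41% of all genes passed in either direction.

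The direction of the class depended on how GC content was treated, and these genes are rich in G and C. Their median GC content was 63.1%, against 49.9% over all genes, and across 11535 genes above 1 RPKM the log2 ratio fell with GC content (Spearman rho -0.53, a description of the 2 libraries over genes that are not independent). Within ranges of GC content, taking genes above 1 RPKM alone and genes with identical values once, the members lay on either side of all genes. At 60 to 65% GC, the median log2 ratio was -0.93 over 624 genes and -0.78 over 18 replication-dependent genes. At 65% GC and above, it was -0.79 over 100 genes and -0.62 over 21 replication-dependent genes, and at 55 to 60% it was -0.70 over 2509 genes and -0.49 over 5. At 50 to 55%, the members were the lower, with -0.39 over 3082 genes and -1.03 over 5 replication-dependent genes, and likewise at 45 to 50%, with -0.02 over 2851 genes and -0.25 over 2. When a curve of the ratio on GC content was taken out, the median of the class turned from -0.61 to 0.13, with 6 members lower and 11 higher against 17.8% and 19.5% of all genes tested. When transcript length was taken out as well, the median was -0.57, with 25 members lower and 0 higher against 15.9% and 16% of all genes. That curve is thinly supported for these genes: 34 members had entries of 411 bases or less, and only 228 genes above 1 RPKM, these members included, were that short. Whether GC content has a part in the lower values was not tested.

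**Figure D2:**
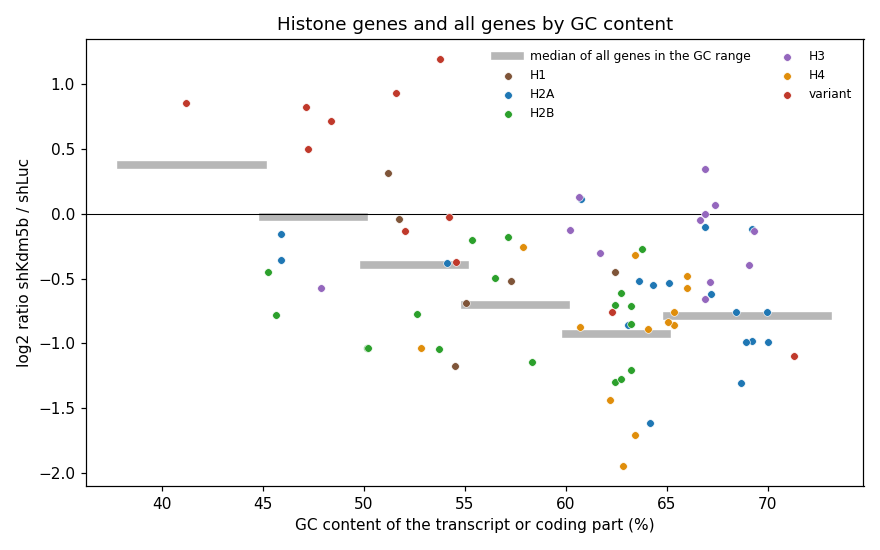
Log2 ratio of shKdm5b to shLuc against the GC content of the transcript or coding part for the 78 histone genes with a sequence, coloured by type. Grey bars are the medians of all genes above 1 RPKM in ranges of GC content, the outer 2 ranges being open-ended. Most replication-dependent genes lie at 60% GC or more, where the grey bars are at -0.93 and -0.79, and after a GC correction their median turned to 0.13. With GC content and length taken out, their median was -0.57.

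H2A, which pairs with H2B on the outer faces of the nucleosome, gave 532 of the 624 RPKM of the class in shLuc cells and 298 of 360 in shKdm5b cells. All 18 H2A genes exceeded 1 RPKM, 9 of them were lower by more than 1.5-fold, or 50% against 32% of all genes tested, and 17 had a log2 ratio below 0, against 60.4% of all genes tested. Their median was -0.58, which turned to 0.19 with the GC correction and stayed at -0.57 with GC content and length. The most abundant, Hist1h2ao, was at 131 RPKM (5254 reads) in shLuc and 42.5 RPKM (1590 reads) in shKdm5b cells, a log2 ratio of -1.62 (counting interval -1.70 to -1.54). Hist1h2ap, the next, was nearly level at the entry kept, at 71.1 and 65.4 RPKM, a log2 ratio of -0.12 (-0.21 to -0.03). Hist1h2ad was at 57.5 and 29.1 RPKM, a log2 ratio of -0.98, and Hist1h2af at 45.1 and 18.2 RPKM, a log2 ratio of -1.30. With the GC correction, Hist1h2ad turned to 0.06 and Hist1h2af stood at -0.27. With GC content and length they were at -0.86 and -1.19. The testis gene Hist1h2aa had nearly the same value in both libraries, 2.72 and 2.96 RPKM, a log2 ratio of 0.12 (-0.33 to 0.58).

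The ratios of Hist1h2ao and Hist1h2ap depend on which genomic copy is read. Each had 2 entries on opposite strands, and for both genes the entry kept is not on the strand of the GRCm38 annotation. That annotation has Hist1h2ao on the plus strand and Hist1h2ap on the minus strand. If strands are the same in mm8, the contrast turns: Hist1h2ao is then within 1.5-fold and Hist1h2ap past it. For Hist1h2ao, the entry on the minus strand gave the values above, and the entry on the plus strand was at 82.6 and 65.8 RPKM, a log2 ratio of -0.33 (-0.40 to -0.25). For Hist1h2ap, the plus entry gave the values above and the minus entry had 1689 and 969 reads, a log2 ratio of -0.70 (-0.81 to -0.58). Summed over the entries, the log2 ratio was -0.98 for Hist1h2ao and -0.34 for Hist1h2ap. Of the 50-base words in the Hist1h2ao transcript, 93.5% also occur in Hist1h2ap, so that reads of this length can rarely be placed on one rather than the other.

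H2B genes were lower as a group and far below the H2A genes in level. Their median was 2.01 RPKM in shLuc and 0.939 in shKdm5b cells, against 16.7 and 10.8 RPKM for H2A. All 19 had lower values in shKdm5b cells, 13 of the 16 above 1 RPKM were lower by more than 1.5-fold (81.2%, against 32% of all genes tested), and the median of -0.77 kept its sign with the GC correction (-0.36) and with GC content and length (-0.85). Those 16 were all higher in shLuc, and some exceeded 1 RPKM in that library alone, so the share is a description. The most abundant member, Hist1h2bc, was at 15.2 and 12.6 RPKM, a log2 ratio of -0.27 (-0.42 to -0.12). That ratio turned to 0.67 with the GC correction and was -0.04 with GC content and length. The GC content of Hist1h2bc was taken from a coding part of 381 bases, while its entry has 728. No stem-loop was found in its annotated transcript, which runs 742 bases past the stop codon. Hist3h2ba was at 6.83 and 6.03 RPKM, a log2 ratio of -0.18 whose counting interval, -0.42 to 0.06, spans 0. Hist1h2bl was at 3.19 and 1.91 RPKM, a log2 ratio of -0.71. Hist1h2bk lay just inside the 1.5-fold threshold at -0.61, from 72 and 43 reads, and the H2A gene Hist1h2ag just outside at -0.55, from 567 and 360 reads. With the GC correction Hist1h2bl turned to 0.20 and Hist1h2bk to 0.28. With GC content and length they were at -0.67 and -0.58. Hist1h2bq and Hist1h2br have identical values, 218 and 91 reads, and their log2 ratio of -1.04 is thus 1 measurement. Each is still counted as a gene in the numbers of lower genes given for the type, the class and chromosome 13.

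H3 genes, which encode the replication-dependent forms of the histone that KDM5B demethylates, stood closest to 0. Of the 9 above 1 RPKM, 1 was lower by more than 1.5-fold (Hist1h3i, named after its value was seen), or 11.1% against 32% of all genes tested. The median over all 12 was -0.13, which turned to 0.03 with scaling and to 0.76 with the GC correction. With GC content and length that median was -0.005. Hist1h3d had the same level in both libraries, 2.27 and 2.28 RPKM from 73 and 68 reads, and its counting interval of -0.50 to 0.50 reaches close to 1.5-fold either way. Hist1h3b was at 1.21 and 1.57 RPKM, the highest log2 ratio of the class above 1 RPKM at 0.35 (-0.27 to 1.02). Hist1h3h was at 1.15 and 1.21 RPKM, and Hist1h3g at 1.74 and 1.40 RPKM. None of these 4 genes had more than 73 reads in a library. The pooled reads of the type gave -0.20 (-0.37 to -0.03).

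H4, the partner of H3 in the nucleosome core, stood lower than H3 in these libraries. All 13 H4 genes had lower values in shKdm5b cells and 7 of the 9 above 1 RPKM were lower by more than 1.5-fold (77.8%, against 32% of all genes tested). Those 9 were all higher in shLuc, and some exceeded 1 RPKM in that library alone, so the share is a description. The pooled log2 ratio of the 13 H4 genes was -0.91 (-1.13 to -0.70), an interval that does not meet that of H3, although counting error is all that both cover. Both would be too narrow if reads were counted for several members, so no conclusion is drawn from the gap. The H4 median was -0.86, and it turned to 0.04 with the GC correction, still below the 0.76 of H3. With GC content and length, the median was -0.57 for H4 and -0.005 for H3. Hist1h4i, the most abundant, was at 3.88 and 1.84 RPKM, a log2 ratio of -1.03 (-1.49 to -0.67) that remained at -0.65 with the GC correction. Its GC content was taken from a transcript of 727 bases, while its entry has 537. Hist1h4n was at 1.89 and 1.01 RPKM, a log2 ratio of -0.83. That ratio turned to 0.07 with the GC correction and was -0.54 with GC content and length. Hist1h4h was at 1.51 and 1.24 RPKM, a log2 ratio of -0.26. Hist1h4c, at 1.23 and 0.309 RPKM, had the lowest ratio of the class above 1 RPKM, -1.70, but it rests on 30 and 7 reads, and its counting interval runs from -3.43 to -0.78.

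H1 genes, for the linker histone, were barely detected. Hist1h1c was the only one of 6 above 1 RPKM, at 3.38 and 2.05 RPKM, a log2 ratio of -0.69 (-0.96 to -0.48) that was -0.14 with the GC correction. Hist1h1a was at 0.875 and 0.332 RPKM and Hist1h1b at 0.628 and 0.409 RPKM. The median of the type was -0.48, or 0.12 with the GC correction and -0.23 with GC content and length.

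**Figure D3:**
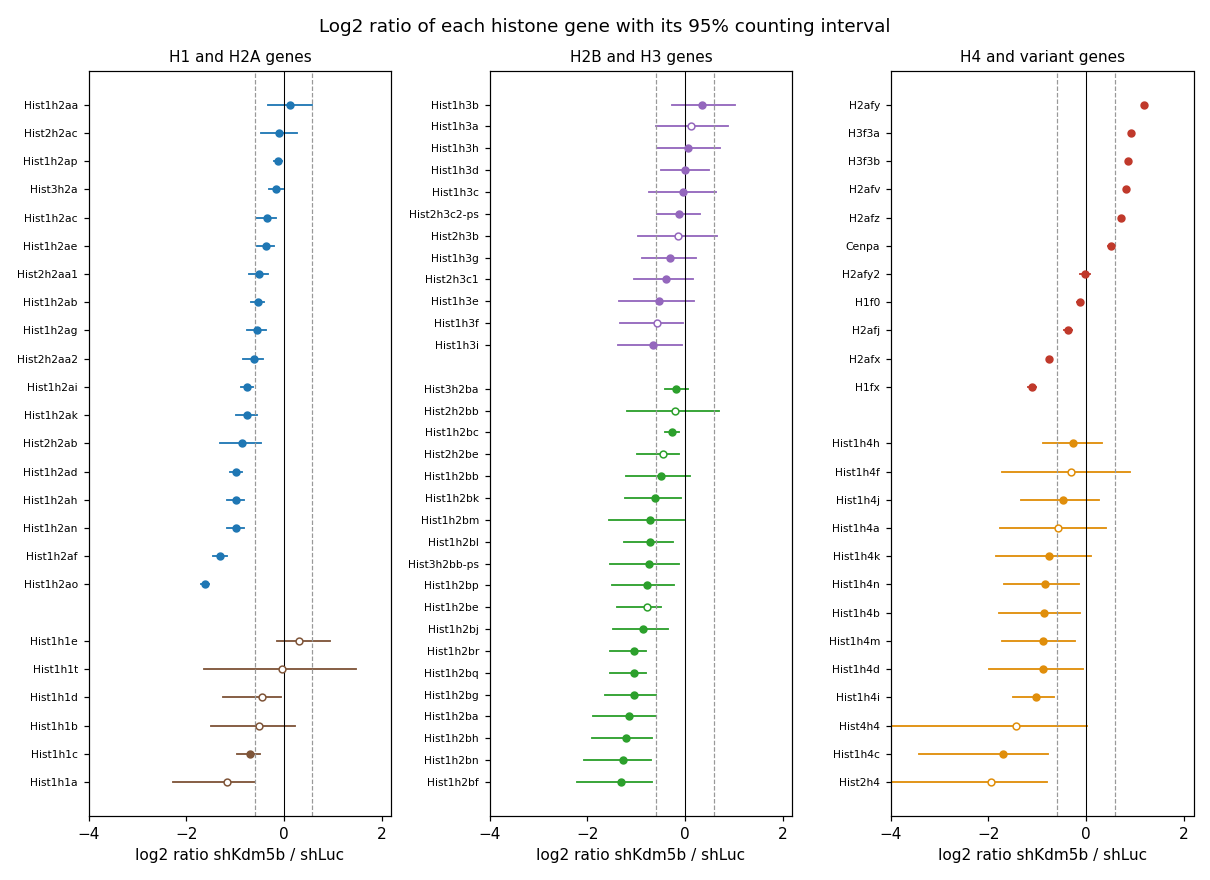
Log2 ratio of shKdm5b to shLuc for each of the 79 histone genes, with its exact 95% counting interval, by type. Filled points exceed 1 RPKM in at least 1 library, open points do not, dashed lines mark 1.5-fold, and intervals that reach past -4 are drawn to the edge. The H2B and H4 points lie left of 0 and the H3 points around it, before any correction for GC content, and 5 variants lie right of the upper dashed line.

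The genes lie in clusters. By the GENCODE annotation, 54 of the replication-dependent genes are on chromosome 13 (Hist1 symbols), 10 on chromosome 3 (Hist2), 2 on chromosome 11 (Hist3) and 1 on chromosome 6 (Hist4), while 1 pseudogene symbol was unmatched. On chromosome 13, 28 of 44 genes above 1 RPKM were lower, against 32% of all genes tested, with a median over all 54 of -0.70. On chromosome 3, 2 of 6 were lower, about the 32% of all genes tested, with a median of -0.42. With the GC correction these medians turned to 0.12 and 0.40, and with GC content and length they were -0.59 and -0.43.

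Within the cluster on chromosome 13, 10 pairs of an H2A and an H2B gene start head to head, 163 to 280 bases apart. For genes with entries on both strands, the entry on the strand of the annotated gene was taken here, on the assumption that strands are the same in mm8 and GRCm38. The H2A gene had the higher RPKM in 10 of the 10 pairs in both libraries, by a median of 13.4-fold in shLuc and 12.3-fold in shKdm5b cells. The range was 1.09 to 62.8-fold in shLuc and 2.76 to 112-fold in shKdm5b cells, the lowest pair being that of the testis genes Hist1h2aa and Hist1h2ba. Entry lengths are unlike in the pair with the highest fold, 514 bases for Hist1h2ao and 2121 for Hist1h2bq. In shLuc cells these 2 entries had 3320 and 218 reads. Hist1h2ap and Hist1h2br, at 393 and 2121 bases, differ likewise. The log2 ratio was lower for the H2B gene in 7 of the 10 pairs. That count takes Hist1h2ao at its plus entry, and with the minus entry that pair turns. In the pair Hist1h2ah and Hist1h2bk, the H2A gene was at 29.5 and 14.8 RPKM and the H2B gene at 2.42 and 1.55 RPKM. In the pair Hist1h2ae and Hist1h2bg, the values were 12.8 and 9.83 RPKM for H2A against 2.27 and 1.05 RPKM for H2B.

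**Figure D4:**
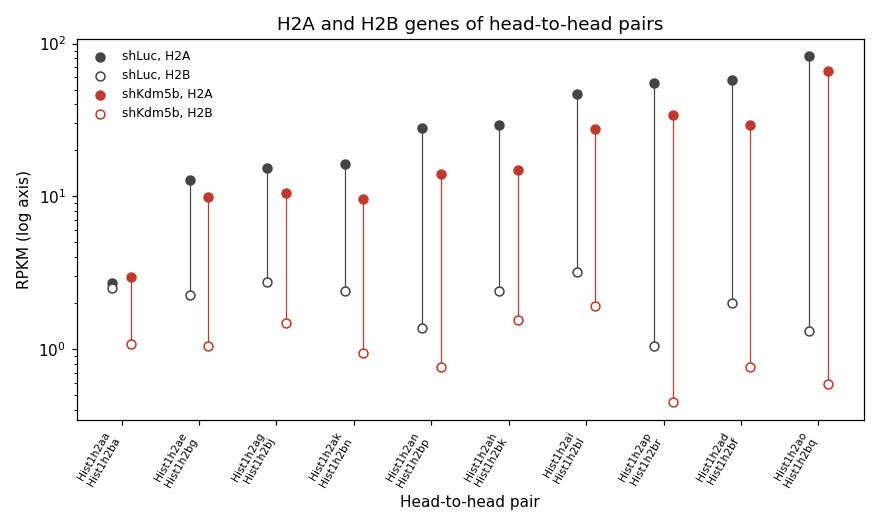
RPKM (log axis) of the H2A gene (filled) and the H2B gene (open) of 10 head-to-head pairs in the shLuc (grey) and shKdm5b (red) libraries, ordered by the H2A level in shLuc cells. The filled point is above the open one in every pair, least in Hist1h2aa and Hist1h2ba, at 2.72 and 2.50 RPKM in shLuc cells. Hist1h2bq and Hist1h2br have entries of 2121 bases, far longer than those of their H2A partners.

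The stretches between the starts of 2 pairs, and the 100 bases before the start of an H4 and a variant gene, are examples and not typical promoters. Both pairs hold the octamer, which most H2A and H2B promoters lack, and H3f3b is the only variant promoter with an octamer or a TATA box. They are from RefSeq promoters of GRCm38.p6, and capitals mark, on either strand, the CCAAT box, the TATA box with the letters TATAAA and the octamer with the letters ATTTGCAT. The first 2 are on the plus strand of chr13:22035644-22035820 and chr13:23571221-23571399. Hist1h4i is on the minus strand at chr13:22041363-22041462 and H3f3b on the minus strand at chr11:116024505-116024604.

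Hist1h2ah/Hist1h2bk: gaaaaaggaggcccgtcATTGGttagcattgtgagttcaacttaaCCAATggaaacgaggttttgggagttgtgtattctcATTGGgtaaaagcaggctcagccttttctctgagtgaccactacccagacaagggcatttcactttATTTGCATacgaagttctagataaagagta
Hist1h2ae/Hist1h2bg: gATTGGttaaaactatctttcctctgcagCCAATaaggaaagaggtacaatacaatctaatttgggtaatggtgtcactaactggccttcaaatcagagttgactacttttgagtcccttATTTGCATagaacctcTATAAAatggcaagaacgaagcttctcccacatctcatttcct
Hist1h4i: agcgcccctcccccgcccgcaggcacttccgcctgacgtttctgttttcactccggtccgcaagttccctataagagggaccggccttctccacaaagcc
H3f3b: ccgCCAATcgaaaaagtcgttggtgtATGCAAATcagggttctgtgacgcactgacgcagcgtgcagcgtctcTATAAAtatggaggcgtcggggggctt

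Promoters running from 250 bases before to 50 bases after the start were found for 72 members, and Hist1h2be, with 2 starts, was counted once. CCAAT, searched on both strands, stood in every H1, H2A, H2B and H3 promoter found (6, 18, 16 and 10), in 3 of 12 H4 promoters, in 7 of 10 variant promoters and in 37.4% of all 32851 promoters. TATAAA stood in 56.5% of replication-dependent promoters and 13.6% of all promoters. By type, it stood in 8 of 12 H4 promoters, although the stretch of Hist1h4i shown has none, and in 1 of 10 variant promoters. The octamer ATTTGCAT, a motif bound by POU factors such as Oct4, stood in 7 of 18 H2A and 7 of 16 H2B promoters, in H3f3b among the variants, in no H1, H3 or H4 promoter and in 1.74% of all promoters. Head-to-head genes share most of these windows, so they are not separate counts, and a match of letters is a description and not a site of binding.

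The variant genes were abundant, and those for H3.3, H2A.Z and macroH2A1 were higher in shKdm5b cells. All 11 exceeded 1 RPKM, 5 were higher by more than 1.5-fold and 2 lower, against 16.3% and 32% of all genes tested. The counting intervals of all 7 lay wholly past 1.5-fold, and the median of the class was 0.50. It stayed above 0 with scaling (0.67), with the GC correction (0.48) and with GC content and length (0.25).

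Both genes for H3.3, the H3 variant laid down outside of replication at active genes and elsewhere, were higher. H3f3b was at 219 RPKM in shLuc and 397 in shKdm5b cells, a log2 ratio of 0.86 (0.84 to 0.88). H3f3a was at 108 and 206 RPKM, a log2 ratio of 0.93 (0.89 to 0.97). With the GC correction, H3f3a was at 1.24 and H3f3b at 0.43, which is within 1.5-fold. The GC content of H3f3a was taken from its coding part, since its annotated transcript is much longer than the entry, and 92.8% of the 50-base words of that part also occur in other transcripts, mostly those of H3f3c.

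Both genes for H2A.Z, a variant placed at promoters and enhancers by exchange complexes, were higher. H2afz was at 205 and 337 RPKM, a log2 ratio of 0.72 (0.69 to 0.75), and H2afv at 43.1 and 76.4 RPKM, a log2 ratio of 0.83 (0.78 to 0.88). With GC content and length taken out, H2afv was at 0.65 and H2afz at 0.25, within 1.5-fold. Of the words of the H2afz transcript, 69.6% occur in other transcripts.

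H2afy, which encodes macroH2A1, a variant with a large additional domain that is tied to repressed chromatin, had the highest ratio of the members, 1.19 (1.14 to 1.25). It was at 26.0 RPKM in shLuc and 59.6 in shKdm5b cells, and its ratio was 1.67 with the GC correction and 1.62 with GC content and length. The other macroH2A gene, H2afy2, was level, at 10.6 and 10.4 RPKM, a log2 ratio of -0.02 (-0.12 to 0.08). Cenpa, for the H3 variant of centromeres, was at 56.7 and 80.5 RPKM, a log2 ratio of 0.50 within 1.5-fold, and passed the fold with scaling (0.67).

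Lower were H2afx and H1fx. H2afx encodes H2A.X, which is phosphorylated at DNA breaks, and is known to give both a short mRNA ending at the stem-loop and a longer polyadenylated one. Its annotated transcript runs 822 bases past the stem-loop shown above. H2afx was the most abundant histone gene in shLuc cells, at 243 RPKM, and was at 144 in shKdm5b cells, a log2 ratio of -0.75 (-0.78 to -0.72), which was just within 1.5-fold with scaling (-0.58), turned to 0.17 with the GC correction and was -0.09 with GC content and length. H1fx, a linker histone variant, was at 41.2 and 19.2 RPKM, a log2 ratio of -1.10 (-1.19 to -1.01). That ratio was -0.04 with the GC correction and -0.48 with GC content and length. H2afx and H1fx were also the variants with the highest GC content, up to 71.3% in H1fx. H1f0, the linker histone of differentiated cells, was within 1.5-fold at 32.6 and 29.8 RPKM, a log2 ratio of -0.13, as was H2afj at 22.6 and 17.5 RPKM, a log2 ratio of -0.37. Both of these ratios turned above 0 with the GC correction, to 0.22 and 0.17.

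Replication-dependent genes with long annotated ends can be set beside H2afx. Of those whose entry matched a transcript running 377 to 2010 bases past the stem-loop, 4 exceeded 1 RPKM. Hist1h1c was lower, at -0.69, and the other 3, named for this feature after their values were seen, were within 1.5-fold: Hist1h2ac at -0.35, Hist3h2a at -0.16 and Hist2h3c2-ps at -0.12.

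The level of a single replication-dependent gene should be read with its relatives, since their coding regions are nearly alike. A median of 68.4% of the 50-base words of a replication-dependent gene occurred in transcripts of other genes, on either strand, and in 43 of 67 genes the share was over 50%. For H2A genes the median was 82.3%, and for variants 9.66%. The study's methods say, for the ChIP-Seq reads, that those mapping to several genomic sites were left out, and for RNA-Seq the sources used here do not say. Exons of all 18 H2A genes overlap an antisense annotation, in 17 of them a miRNA entry, and without knowledge of strand in the counting, reads of the gene and of its antisense partner cannot be told apart. The H2A levels stand above the other types also among entries of like length: 11 H2A entries of 387 to 393 bases had 2.72 to 71.1 RPKM in shLuc cells, and 8 H2B entries of 381 to 384 bases had 1.48 to 3.19 RPKM. Genes with the same stem-loop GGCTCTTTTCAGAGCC likewise ranged widely, with medians of 16.3 RPKM over 10 H2A genes, 2.27 RPKM over 7 H2B genes and 1.24 RPKM over 5 H3 genes in shLuc cells.

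The factors that make and turn over replication-dependent histone mRNA did not move as one. Of 14 genes of this list in the files, 3 were lower by more than 1.5-fold (21.4%, against 32% of all genes tested), 0 were higher, and their median log2 ratio was -0.12, or 0.05 with scaling. Slbp, for the stem-loop binding protein, was at 54.7 RPKM in shLuc and 74.7 in shKdm5b cells, a log2 ratio of 0.45. Npat, the cyclin E-CDK2 target that turns on histone gene transcription, was also at 0.45, from 11.4 and 15.7 RPKM. Casp8ap2 (FLASH), which joins the processing complex, was at 13.8 and 13.3 RPKM, and Lsm10, of the U7 particle that directs cleavage after the stem-loop, at 9.82 and 8.27 RPKM. Lsm11, the other U7-specific protein, was lower, at 2.67 and 1.51 RPKM, a log2 ratio of -0.78, which was within 1.5-fold with the GC correction (-0.55). Upf1, a helicase that takes part in histone mRNA decay, was lower at 46.8 and 15.9 RPKM, a log2 ratio of -1.55 that was -0.79 with the GC correction. The third lower gene, named after its value was seen, was Srrt, at 73.9 and 27.2 RPKM, a log2 ratio of -1.44. Npat changed sign with the GC correction, to -0.02, and Slbp was then at 0.40.

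Of 28 histone chaperones and exchange factors, 4 were higher and 11 lower by more than 1.5-fold, or 14.3% and 39.3%, against 16.3% and 32% of all genes tested, with a median of -0.38. Of those that lay down H3.3, Hira, Ubn1 and Cabin1 of the HIRA complex and Daxx were lower, and Atrx was within 1.5-fold. Hira, the core of the complex that deposits H3.3 at active genes, was at 23.1 and 8.04 RPKM, a log2 ratio of -1.51 that was -1.04 with the GC correction. Ubn1 and Cabin1, named after their values were seen, had log2 ratios of -0.77 and -1.16, which were -0.40 and -0.49, within 1.5-fold, with the GC correction. Daxx was at 41.3 and 17.6 RPKM, a log2 ratio of -1.23, while Atrx, its partner at heterochromatin, was at 17.3 and 20.7 RPKM, a log2 ratio of 0.26 that turned to -0.27 with the GC correction. The genes of the H3.3 protein itself were higher, as given above. Hjurp, which deposits the centromeric histone, was at 24.3 and 10.1 RPKM, a log2 ratio of -1.25, and Cenpa at 0.50.

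For the replication-coupled chaperones, Chaf1a, the large subunit of CAF-1, was at 30.4 and 12.4 RPKM, a log2 ratio of -1.29. It was at -0.67 with the GC correction and at -0.55, within 1.5-fold, with GC content and length. Chaf1b was at 42.2 and 25.2 RPKM, a log2 ratio of -0.74 that was within 1.5-fold with the GC correction (-0.27). Asf1a and Asf1b, which hand H3 and H4 to the depositing complexes, were within 1.5-fold at 0.42 and -0.31, and both changed sign with the GC correction. Nasp, which keeps a reserve of soluble H3 and H4, was at 197 and 236 RPKM, a log2 ratio of 0.26. The highest ratio of the list was that of Hat1, which acetylates newly made H4, at 135 and 302 RPKM, a log2 ratio of 1.16. It was 0.73 with the GC correction and 0.57, within 1.5-fold, with GC content and length.

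Among 38 genes of DNA replication and the G1/S transition, 18 (47.4%) were lower and 4 (10.5%) higher by more than 1.5-fold, against 32% and 16.3% of all genes tested, and the median was -0.52. The lowest was Pold1, a subunit of DNA polymerase delta, at 24.4 and 6.33 RPKM, a log2 ratio of -1.93, and the highest was Gins1, of the replicative helicase, at 23.8 and 45.7 RPKM, a log2 ratio of 0.94. With the GC correction, 11 were lower and 1 higher, against 17.8% and 19.5% of all genes, with a median of -0.33. The share of cells in S phase was not measured in these libraries, and its part in the histone values was not tested.

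**Figure D5:**
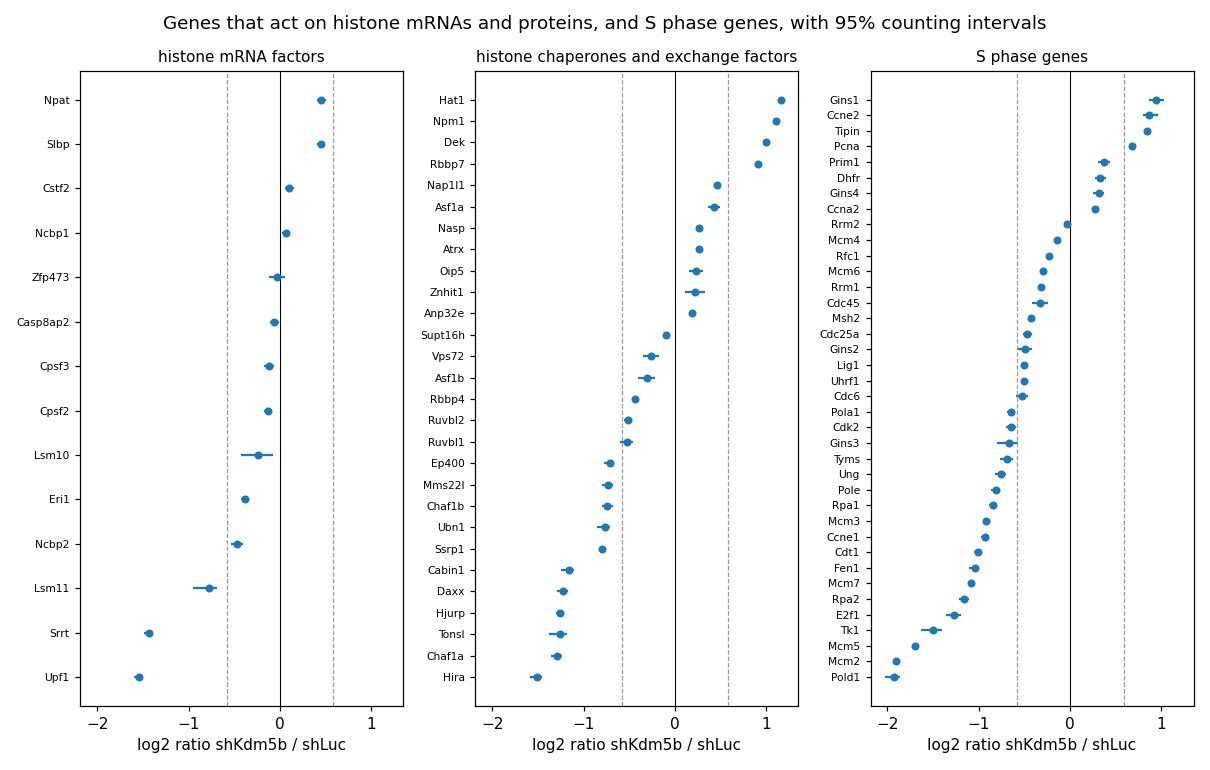
Log2 ratio of shKdm5b to shLuc, with exact 95% counting intervals, for 14 histone mRNA factors, 28 histone chaperones and exchange factors and 38 S phase genes. Dashed lines mark 1.5-fold. Upf1, Hira and Pold1 are the lowest of their lists, at -1.55, -1.51 and -1.93, and Slbp and Npat, both at 0.45, lie within 1.5-fold.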

How the data were processed

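The authors selected poly(A) RNA, made double-stranded cDNA and sequenced it on Illumina instruments. The submitters' processing notes name CASAVA 1.0, Bowtie 0.12.7 and the mm8 build, and the counting program is not given in the sources used here. For 27405 RefSeq entries the authors deposited whole-number read counts and RPKM values, that is, counts normalized to transcript length and aligned reads. Read counts, lengths and RPKM gave the totals of the deposited alignments. A column of unstated meaning was left out.

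For each symbol the entry highest in mean RPKM was kept. Log2 ratios were taken on log2(RPKM + 0.1), which understates the change of low genes. A call needed a fold above 1.5 and RPKM above 1 in at least 1 library. The study used edgeR with an FDR below 0.001, but 1 library per group gives no spread, so edgeR 4.0.16 (R 4.3.3, exact test) was run only as an alternative at assumed dispersions of 0 and 0.04. It compares the pair of libraries, not the conditions. Counting intervals are exact Clopper-Pearson intervals at 95%.

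GC content came from GENCODE M21 transcripts of GRCm38, or their coding part where its length was nearer that of the entry, for 97.1% of symbols and 78 members, 61 of them within 10% of the entry's length. GC content, or GC content and then length, was taken out by lowess (fraction 0.3, statsmodels 0.14.6). Chromosomes from GRCm38 describe the genes, not the alignments, and the mm8 genome was not used here. Promoters came from RefSeq (GRCm38.p6).

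The members and lists were chosen with earlier results of these data known. The genes named were the variants, the 3 most abundant members of each type, the 3 highest and 3 lowest ratios above 1 RPKM, those next to the fold threshold, preset factors and the extremes of each list. Genes named for a pair, a shared entry, a stem-loop or the end of a range were chosen after their values were seen. The steps were tested on simulated data. Python 3.11.15, pandas 2.3.3, NumPy 2.4.6, SciPy 1.17.1 and matplotlib 3.10.9 were used.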

Additional observations from a re-analysis of the deposited data

How the results depend on the processing

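With 1 library per group no replicate could be left out. No paired analysis was possible because each group has 1 library and no result comes from a test. For the replication-dependent genes, 31 lower and 0 higher became 16 lower with a pseudocount of 1 RPKM, 17 past the fold (11 higher, 6 lower) with the GC correction, 11 with a fold above 2, 15 with edgeR at a dispersion of 0 and 0 at 0.04, while the other alternatives gave 24 to 35. At a dispersion of 0.04, 284 of all genes tested passed (2.41%). Their median log2 ratio of -0.61 was -0.40 with a pseudocount of 1 RPKM, -0.65 with 0.01, -0.45 with scaling, -0.57 with GC content and length, -0.71 over members above 1 RPKM and 0.13 with the GC correction. That correction turned the sign of 42 of the 78 members with a GC content. Of members called lower and named here, these were H2afx (0.17), Hist1h2ad (0.059), Hist1h2ah (0.057), Hist1h2bk (0.28), Hist1h2bl (0.20), Hist1h3i (0.28) and Hist1h4n (0.069). With GC content and length they were below 0 again, in that order at -0.09, -0.86, -0.85, -0.58, -0.67, -0.58 and -0.54. The cause was not tested.

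The variants' 7 calls became 4 with the GC correction, 3 with GC content and length, 2 with a fold above 2 and 0 with edgeR at 0.04. Their median of 0.50 was 0.67 with scaling, 0.48 with the GC correction and 0.25 with GC content and length. The histone mRNA factors' 3 calls became 5 with scaling (2 higher, 3 lower) and 0 at 0.04. The chaperones' 15 became 6 with GC content and length, 8 with a fold above 2 and 0 at 0.04. The S phase genes' 22 became 12 with the GC correction, 10 with GC content and length, 9 with a fold above 2 and 0 at 0.04. Over all genes, 5702 became 3711 with GC content and length and 2688 with a fold above 2, and scaling moved the split from 16.3% higher and 32% lower to 22.1% and 25.3%. Depth limits 42 of the 79 members, which had fewer than 100 reads in both libraries: 5 of 6 H1, 1 of 18 H2A, 12 of 19 H2B, 12 of 12 H3 and 12 of 13 H4 genes.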
